A study of Rattus norvegicus with 40 samples.

Results

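Klf9, Tsc22d3, Fkbp5, Nr3c1 and Ddit4 were followed across circulating and kidney T cells of rats of the Dahl salt-sensitive strain (SS). They are the glucocorticoid receptor gene (Nr3c1) and 4 genes that the receptor is known to induce. Members were taken by symbol, case ignored, from the gene column of 15 deposited comparison tables. The 5 symbols stood on 6 of the 31677 gene models in each table, of which 14949 models carry a symbol. A gene model is 1 assembled gene with its own row, and Nr3c1 and NR3C1 are separate rows whose symbols differ only in case. All 6 models were tested in all 15 tables.

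The dataset holds 40 RNA-seq libraries, 4 in each of 10 groups, and each library was made from T cells pooled from 3 rats. Kidney and circulating T cells were each taken from 5 groups of rats. SS/MCW rats were sampled on low-salt chow (LS) at 7 weeks of age, on LS at 10 weeks, and at 10 weeks after 3 weeks of high-salt chow (HS). SS/CRL rats were sampled at 10 weeks on LS and at 10 weeks after 3 weeks of HS. All animals are of the SS strain, an inbred model of hypertension driven by dietary salt. As background, SS/MCW and SS/CRL are colonies of this strain raised on different maintenance diets, so colony and base diet cannot be told apart. Expression is in FPKM, fragments scaled by the authors for gene length and library size, with 1 value per group in each table. No spread among the 4 libraries can therefore be given, and library depth is unknown.

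Glucocorticoids enter the cell and bind the receptor encoded by Nr3c1, which is held ready in the cytoplasm by heat shock proteins and immunophilins. The receptor then moves to the nucleus, binds DNA and raises or lowers transcription. In T cells this pathway is known for restraining activation and cytokine production and for promoting the death of immature cells. Tsc22d3 encodes GILZ, a leucine zipper protein that restrains NF-kappaB and AP-1. Fkbp5 encodes FKBP51, an immunophilin that lowers the affinity of the receptor for its hormone and so forms a feedback loop. Klf9 encodes a zinc finger transcription factor. Ddit4 encodes REDD1, an inhibitor of the kinase complex mTORC1 that also responds to hypoxia and DNA damage.

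The starts of Klf9 and Tsc22d3 are shown because Klf9 was the induced gene called for salt and Tsc22d3 had the greatest tissue difference of the members. Both are from RefSeq on build GRCr8 and run 5′ to 3′ over the 250 bases before a start on the strand of the gene. The Klf9 stretch is chr1:230126396-230126645 on the plus strand. The Tsc22d3 stretch is chrX:109010035-109010284 on the minus strand and belongs to the most downstream of its 3 listed starts. Capitals mark CCAAT on either strand and TATAAA on the strand of the gene, and adjoining CCAAT matches share letters where they read CCAATTGG. These motifs were chosen after the sequences had been seen.
Klf9: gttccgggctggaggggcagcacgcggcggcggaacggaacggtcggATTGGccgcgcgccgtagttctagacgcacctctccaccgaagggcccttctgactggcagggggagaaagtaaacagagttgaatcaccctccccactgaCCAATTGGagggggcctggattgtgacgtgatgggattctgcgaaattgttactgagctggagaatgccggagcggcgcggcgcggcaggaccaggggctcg
Tsc22d3: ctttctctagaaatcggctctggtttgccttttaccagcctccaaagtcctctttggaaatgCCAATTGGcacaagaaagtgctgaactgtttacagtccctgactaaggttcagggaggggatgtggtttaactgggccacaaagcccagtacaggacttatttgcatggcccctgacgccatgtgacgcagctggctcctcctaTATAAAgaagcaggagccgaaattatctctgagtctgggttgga

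The Klf9 stretch held 3 CCAAT matches, the nearest beginning 99 bases before the start. The Tsc22d3 stretch held 2 CCAAT matches and a TATAAA match that began 44 bases before the start. The stretches before its other listed starts, chrX:109065431-109065680 and chrX:109066390-109066639, held neither motif. CCAAT stood in 34.0% and TATAAA in 8.06% of 33469 promoters of the same length, and in 4 and 1 of the 8 promoters listed for the 5 genes. The letters of the receptor's motif, AGAACA and its reverse complement TGTTCT, were searched on both strands in windows of 300 bases that add 50 bases after the start. None of the 8 member windows held either, against 20.7% of all windows. None held AGAACA followed after 3 bases by TGTTCT with at most 2 mismatches, which 1.87% of all windows held. G and C made up 50.7% to 79.0% of the member windows, against a median of 51.7% over all windows. The shares of all windows were not matched for this content. The member windows cover only the start of each gene, and the result says nothing of sites elsewhere.

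On build rn5, as the tables give it, Klf9 lies at chr1:248193533-248219917, Fkbp5 at chr20:10176879-10262116 and Ddit4 at chr20:31315029-31318205. The Nr3c1 model lies at chr18:31408681-31452023 and the NR3C1 model at chr18:32327620-32381303, with 875596 bases between them. RefSeq lists 1 Nr3c1 gene for the rat in GRCr8, so the 2 models are reported apart and their levels are not summed. Whether both hold transcripts of the receptor gene was not resolved. Reads that fit either model could have been divided between them. The Tsc22d3 model lies at chr3:52656507-52715431, whereas RefSeq places Tsc22d3 on chromosome X in GRCr8. Of its 9 neighbours with a RefSeq symbol, 8 are on X there too, among them Psmd10, Prps1 and Morc4.

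Cell type markers were read in the same libraries as the members. In circulating cells 15 T cell markers summed to between 5340 and 6599 FPKM, while 9 proximal tubule markers summed to at most 0.757. In cells labelled kidney T cells the T cell markers were present but summed to only 271 to 1030 FPKM, highest in SS/MCW on HS, and none was at 0. Macrophage marker models, 9 in all, summed to between 45.3 and 62.2 FPKM in circulating cells, where the complement genes C1qa and C1qc were at 0 in all 5 groups and C1qb in 4. In kidney, proximal tubule markers summed to between 2249 and 10199 FPKM, thick limb and distal nephron markers to between 1648 and 15548, and macrophage markers to between 164 and 914. The kidney libraries thus hold RNA of tubule and myeloid genes beside that of T cells. In these bulk samples a lower share of cells of 1 type and less RNA per cell cannot be told apart, and the part of cell mixture in the tissue differences below was not tested.

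Every member had a lower value in kidney than in circulating T cells in every group of rats. A model was called where the q of the authors' deposited Cuffdiff table was under 0.05, and 26 of 30 member tests were called, all lower in kidney. In SS/MCW rats on LS, 5 of 6 models were called lower at 7 weeks (23.9% of all models tested were called lower and 32.9% higher). At 10 weeks 4 were called lower (17.0% and 26.6% of all). In SS/MCW rats on HS 5 were called lower (18.4% and 30.6% of all). In SS/CRL rats all 6 were called lower on LS (22.0% and 31.5% of all) and on HS (20.3% and 30.6% of all). The tests not called were NR3C1 in the 3 SS/MCW groups and Ddit4 in SS/MCW on LS at 10 weeks. The median log2 fold change over the 6 models ran from -1.31 in SS/CRL on LS to -0.77 in SS/MCW on LS at 7 weeks. Over all models tested it lay between 0.20 and 0.44. Over models with at least 5 FPKM in both tissues it lay between -0.23 and -0.15. The T cell markers were lower still, with all 15 called lower in all 5 comparisons and a median kidney level between 2.91% and 13.2% of the circulating level.

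Levels below are the median of the 2 to 4 tables that hold a group, which differed by at most 1.15-fold for any member. Values run through SS/MCW on LS at 7 and 10 weeks, SS/MCW on HS, SS/CRL on LS and SS/CRL on HS. Fold changes come from the table that compared the 2 tissues. Standard errors (SE) were derived from the log2 fold change and the deposited p, and where that p was the smallest given, 5e-05, it was taken at that value. At that p the SE is a fixed share of the log2 fold change and does not measure its spread. An SE from the deposited test statistic instead was larger in 85 of the 90 member effects, by a median of 1.95-fold, so the printed SEs and intervals are the narrower of the 2 for most effects. The printed SE was the wider for Fkbp5 between the tissues in SS/CRL on HS. It was also the wider for Tsc22d3 between the tissues in all groups but SS/MCW on LS at 10 weeks. For the 60 effects within a tissue the SE from the statistic was 1.78 to 2.18 times as large.

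**Figure D1:**
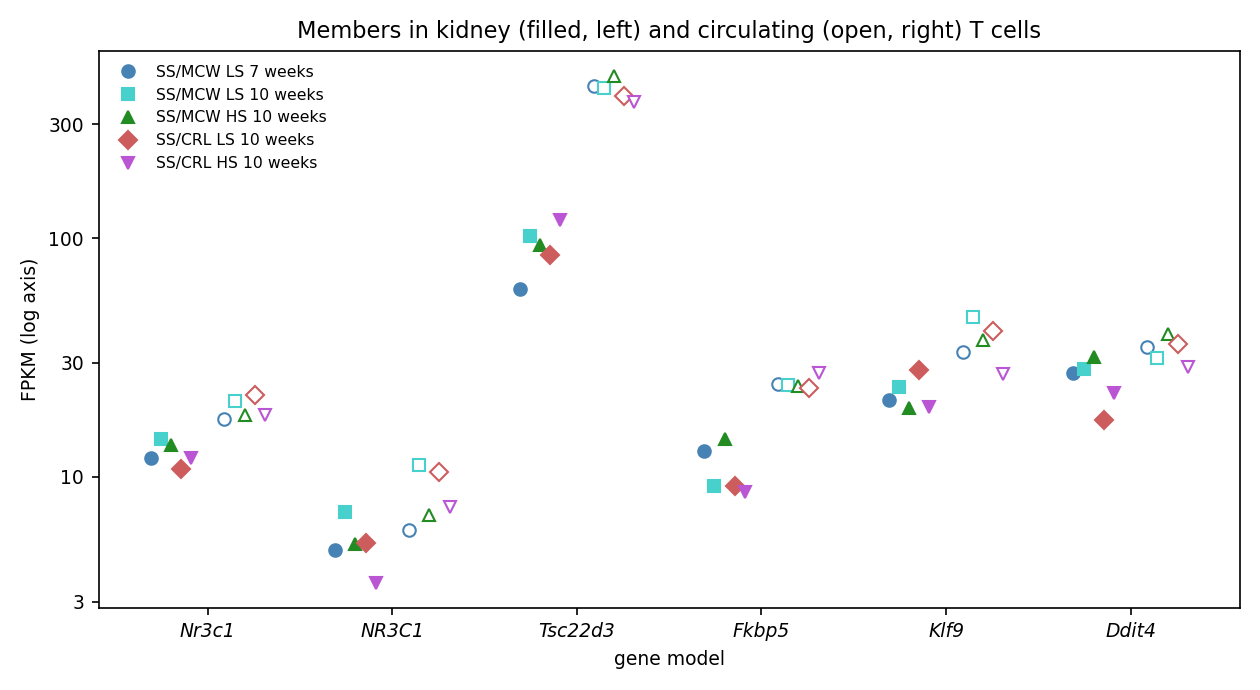
FPKM of the 6 gene models (log vertical axis) in the 5 groups of rats, with kidney T cells as filled symbols and circulating T cells as open symbols. Each symbol is the median of the authors' group values over 2 to 4 tables. Kidney and circulating values stand apart for Nr3c1, Tsc22d3 and Fkbp5 and overlap for NR3C1, Klf9 and Ddit4.

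The receptor gene came first. Nr3c1 stood at 12.0, 14.4, 13.7, 10.8 and 12.0 FPKM in kidney and at 17.4, 20.9, 18.2, 21.9 and 18.2 FPKM in circulating cells. The highest kidney value was below the lowest circulating value. Kidney levels were between 40.9% and 61.7% of circulating ones, and the log2 fold change ran from -1.29 ± 0.32 (SE) in SS/CRL on LS to -0.70 ± 0.18 in SS/MCW on LS at 7 weeks, with all 5 comparisons called. The NR3C1 model, the less abundant model with the receptor's symbol, stood at 4.96, 7.11, 5.22, 5.29 and 3.61 FPKM in kidney. In circulating cells it stood at 5.96, 11.2, 6.91, 10.5 and 7.51 FPKM. Its tissue ranges overlapped. It was called lower in kidney in SS/CRL on LS (-1.26 ± 0.34) and on HS (-1.35 ± 0.40). In SS/MCW its log2 fold changes lay between -0.95 and -0.43 without a call.

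Tsc22d3, the GILZ gene, was the most abundant member in every group. It stood at 60.9, 102, 94.0, 85.3 and 119 FPKM in kidney and at 434, 426, 477, 392 and 373 FPKM in circulating cells. Among the 14949 models with a symbol it ranked between 163 and 201 in circulating cells and between 933 and 1725 in kidney. The kidney level was 12.6%, 19.5%, 16.0%, 18.0% and 25.7% of the circulating one. The log2 fold change ran from -2.99 ± 0.74 (SE) in SS/MCW on LS at 7 weeks to -1.96 ± 0.48 in SS/CRL on HS. Tsc22d3 was called in all 5 comparisons, and in all 5 under each alternative way of calling that was tried.

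Fkbp5, the receptor's co-chaperone, stood at 12.9, 9.15, 14.4, 9.17 and 8.63 FPKM in kidney. In circulating cells it was nearly level across the groups at 24.4, 24.2, 24.0, 23.5 and 27.3 FPKM. The highest circulating value was 1.16-fold the lowest, about the size of the difference between tables, while the kidney values spanned 1.67-fold. Kidney levels were 47.2%, 30.6%, 49.0%, 32.2% and 25.5% of circulating ones, and all 5 comparisons were called. The log2 fold change was greatest in SS/CRL on HS (-1.97 ± 0.49, SE) and smallest in SS/MCW on HS (-1.03 ± 0.25).

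Klf9 stood at 20.9, 23.7, 19.4, 27.9 and 19.7 FPKM in kidney and at 33.5, 46.6, 37.5, 41.0 and 27.0 FPKM in circulating cells. The tissue ranges overlapped, since the circulating value of SS/CRL on HS was under the kidney value of SS/CRL on LS. Within each group of rats Klf9 was lower in kidney, at 41.5% to 59.2% of the circulating level, and all 5 comparisons were called. Its log2 fold change ran from -1.27 ± 0.31 (SE) in SS/MCW on LS at 10 weeks to -0.76 ± 0.19 in SS/CRL on HS.

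Ddit4, the REDD1 gene, had the smallest fold of the 6 models in 3 of the 5 groups. It stood at 27.2, 28.3, 31.9, 17.4 and 22.5 FPKM in kidney and at 35.0, 31.4, 39.7, 36.0 and 28.8 FPKM in circulating cells, and these ranges overlapped. Its log2 fold change in SS/CRL on LS was -1.33 ± 0.33 (SE), and in the other 4 groups it lay between -0.66 and -0.46. The comparison in SS/MCW on LS at 10 weeks was not called (q = 0.206 in the authors' deposited table).

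**Figure D2:**
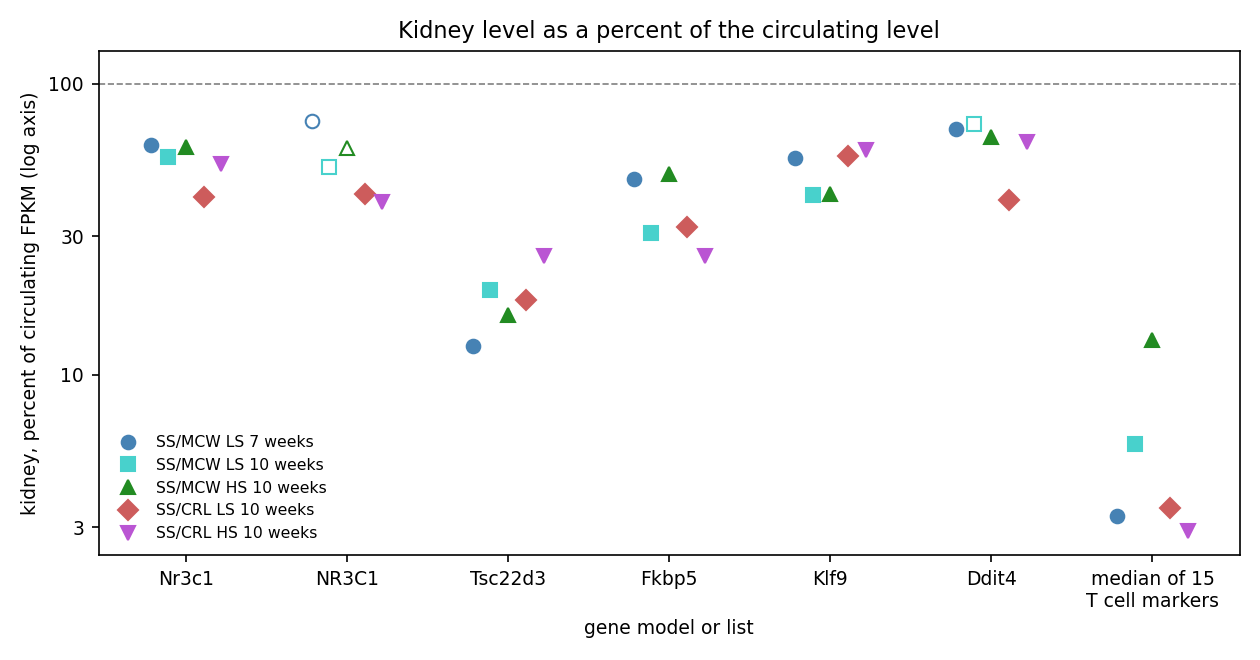
Kidney FPKM as a percent of circulating FPKM (log vertical axis) for the 6 gene models and for the median of 15 T cell markers, in 5 groups of rats. Filled symbols were called at a Cuffdiff q under 0.05 (for the markers, all 15 were called) and open symbols were not. Every point is under 100%, and in each group of rats the marker median, 2.91% to 13.2%, lies below all 6 members.

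Calls between the tissues depended on how the p was formed. With a p read from the deposited statistic under a normal curve, 13 of the 26 calls were kept, among them 4 of 5 for Fkbp5 but 1 of 5 for Klf9, 2 of 5 for Nr3c1, 1 of 4 for Ddit4 and 0 of 2 for NR3C1. Taking off the median of models with at least 5 FPKM in both tissues, which lay between -0.23 and -0.15, kept 22.

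Salt, rat type and age left the members of kidney T cells without a call. Over the 5 kidney comparisons 0 of 30 Cuffdiff tests were called, 4 had an unadjusted p under 0.05, and the smallest q in the authors' deposited tables was 0.114. Of all models tested, 0.433% were called for salt in SS/MCW, 5.51% for salt in SS/CRL, 1.81% for type on LS, 5.72% for type on HS and 1.07% for age. In circulating cells 2 of 30 Cuffdiff tests were called and 12 had an unadjusted p under 0.05. In the same order 0.107%, 0.670%, 0.541%, 0.241% and 1.94% of all models were called there. These shares and those for kidney are of calls, and they give no background for the counts of unadjusted p. No member effect within a tissue exceeded 1 on the log2 scale.

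**Figure D3:**
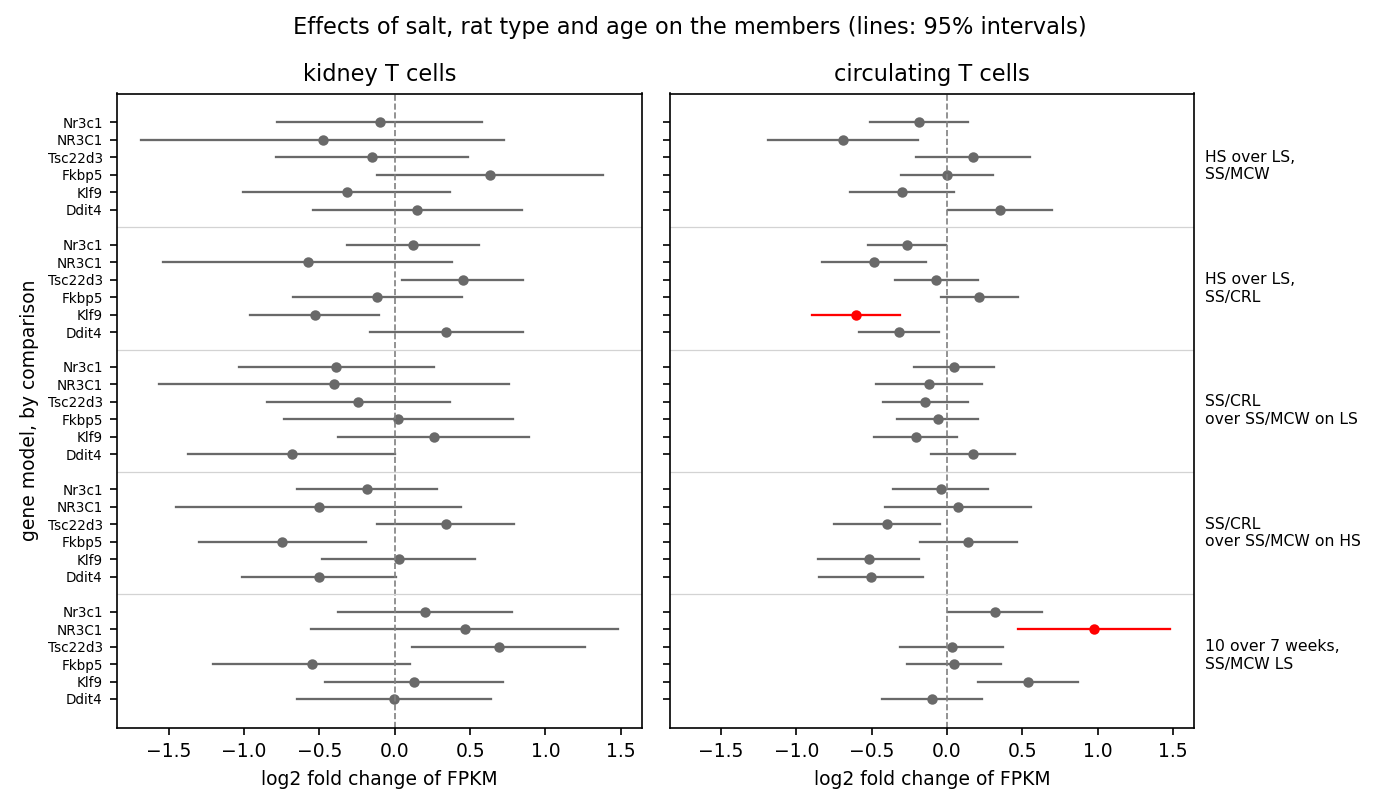
Log2 fold change of FPKM with its 95% interval (SE from the deposited p) for the 6 gene models under each contrast of salt, rat type or age, in kidney (left) and circulating (right) T cells. Red marks the 2 effects called, Klf9 for salt in SS/CRL and NR3C1 for age, both in circulating cells. Kidney intervals are wider than circulating ones for the same contrast.

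With salt, circulating Klf9 fell in SS/CRL rats from 41.0 FPKM on LS to 27.0 on HS. The log2 fold change was -0.60 ± 0.15 (SE; 95% interval -0.89 to -0.31; q = 0.0106 in the authors' deposited table). With the SE from the statistic, 0.27, the interval was -1.12 to -0.08. The deposited Cuffdiff p was 5e-05, the smallest given, so the first SE is a fixed share of the effect. The direction was the same for Klf9 in the other 3 salt comparisons, which were not called, at -0.30 ± 0.18 in circulating SS/MCW cells, -0.32 ± 0.35 in kidney SS/MCW cells and -0.53 ± 0.22 in kidney SS/CRL cells. The call of Klf9 was lost at a q under 0.01 and with the normal-curve p. Red cell markers in the circulating SS/CRL libraries summed to 76.4 FPKM on LS and 141 on HS, and platelet markers to 25.4 and 47.4. The part of these cells in the result was not tested.

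Both models with the receptor's symbol had lower values on HS in circulating cells of both types, without a call. Nr3c1 was at 20.6 FPKM on LS and 18.1 on HS in SS/MCW (-0.19 ± 0.17, SE), and at 21.9 and 18.2 in SS/CRL (-0.27 ± 0.13). NR3C1 was at 11.1 and 6.87 FPKM in SS/MCW (-0.69 ± 0.25) and at 10.5 and 7.51 in SS/CRL (-0.49 ± 0.18). In kidney the log2 fold changes of NR3C1 were -0.48 ± 0.61 in SS/MCW and -0.58 ± 0.49 in SS/CRL. Those of Nr3c1 there were nearer 0 and opposite in sign, at -0.10 ± 0.35 and 0.12 ± 0.22.

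Tsc22d3, Fkbp5 and Ddit4 showed no called effect of salt. Kidney Tsc22d3 in SS/CRL was at 87.0 FPKM on LS and 119 on HS (0.45 ± 0.20, SE), and in SS/MCW at 104 and 94.0 (-0.15 ± 0.33). Kidney Fkbp5 was at 9.31 and 14.4 FPKM in SS/MCW (0.63 ± 0.38) and at 9.35 and 8.63 in SS/CRL (-0.12 ± 0.28). Circulating Fkbp5 in SS/MCW stood at 23.9 FPKM on both chows, with a 95% interval of the log2 fold change from -0.30 to 0.31. Circulating Ddit4 was at 31.0 and 39.5 FPKM in SS/MCW (0.35 ± 0.18) and at 36.0 and 28.8 in SS/CRL (-0.32 ± 0.14), opposite in sign.

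Between the rat types no member was called. On HS, kidney Fkbp5 was at 8.85 FPKM in SS/CRL and 14.8 in SS/MCW, a log2 fold change of -0.75 ± 0.28 (SE; 95% interval -1.30 to -0.19; q = 0.114 in the authors' deposited table). This was the largest kidney value within a tissue. Beside it, T cell markers in kidney summed to 271 FPKM in SS/CRL and 1030 in SS/MCW on HS, 13 of the 15 were called lower in SS/CRL, and macrophage markers summed to 170 and 914. Their part in this value was not tested. Kidney Ddit4 was lower in SS/CRL on LS (17.4 against 27.9 FPKM, -0.68 ± 0.35) and on HS (23.1 against 32.7, -0.50 ± 0.26), neither called. In kidney on LS, proximal tubule markers summed to 10199 FPKM in SS/CRL and 4309 in SS/MCW, with 3 of 9 called higher. Thick limb and distal nephron markers summed to 1648 and 4980 FPKM. The part of tubule RNA in the Ddit4 values was not tested. In circulating cells on HS, Klf9 (26.2 against 37.5 FPKM, -0.52 ± 0.17), Ddit4 (28.0 against 39.7, -0.50 ± 0.17) and Tsc22d3 (362 against 477, -0.40 ± 0.18) had lower values in SS/CRL without a call. On LS all 6 circulating log2 fold changes lay between -0.21 and 0.17.

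With age, the NR3C1 model rose in circulating SS/MCW cells on LS from 5.63 FPKM at 7 weeks to 11.1 at 10 weeks. Its log2 fold change was 0.98 ± 0.26 (SE; 95% interval 0.47 to 1.48; q = 0.0151 in the authors' deposited table). With the SE from the statistic, 0.47, the interval was 0.06 to 1.89. The Nr3c1 model, of the same symbol, was at 16.5 and 20.6 FPKM (0.32 ± 0.16) and was not called, and the difference between the 2 models was not tested. The NR3C1 call was lost at a q under 0.01 and with the normal-curve p. Klf9 was at 31.7 and 45.9 FPKM (0.53 ± 0.17; q = 0.0653 in the authors' deposited table), and it passed only when log2 fold changes were recentred. Fkbp5, Tsc22d3 and Ddit4 in circulating cells had log2 fold changes between -0.10 and 0.04. In kidney Tsc22d3 was at 64.4 FPKM at 7 weeks and 104 at 10 weeks (0.69 ± 0.29) and was not called. Red cell markers in the circulating libraries summed to 184 FPKM at 7 weeks and 54.2 at 10 weeks, and platelet markers to 108 and 28.8. Their part in the age result was not tested.

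Whether an effect differed between rat types or tissues was tested as the difference of the 2 log2 fold changes over its SE, its p taken from the normal curve and adjusted by Benjamini-Hochberg over all models. Circulating and kidney pools of each group of rats share their 20 numbers in the labels and may come from the same rats, and the SE of a difference between tissues treats them as independent. Over all models the SD of the ratio lay between 0.68 and 1.26 across the tests, where the normal curve takes 1, and between 0.61 and 4.94 with the SE from the statistic. No member passed in any of 7 such tests, and 6 of 42 member values had an unadjusted p under 0.05. Of these, 2 were for salt in SS/CRL between the tissues, where 1423 of 11761 models had such a p. Another 2 were for type on HS, with 1294 of 12860 models. The circulating salt difference had 1, with 247 of 16360 models, and type on LS had 1, with 741 of 11498. The other tests had none, with 1131 of 16429 models for kidney salt, 470 of 12479 for salt in SS/MCW and 781 of 12218 for age. Of all models, 0.365% passed for the kidney salt effect of SS/MCW less that of SS/CRL and 0.00611% for the circulating one. For kidney less circulating, 0.0321% and 1.41% passed for salt in SS/MCW and SS/CRL, 0.139% and 2.79% for type on LS and HS, and 0.344% for age. The salt effect on circulating Ddit4 was greater in SS/MCW than in SS/CRL by 0.67 ± 0.22 (SE; 95% interval 0.24 to 1.11), with a difference-test adjusted p of 1.00. The effect of type on HS differed between kidney and circulating cells by 0.74 ± 0.29 for Tsc22d3 and by -0.89 ± 0.33 for Fkbp5, with difference-test adjusted p of 0.212 and 0.143. For Klf9 the salt effect in SS/CRL differed between the tissues by 0.07, with a 95% interval from -0.45 to 0.59.

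Other glucocorticoid-induced genes went mostly the other way between the tissues. Of 27 gene models matched, 24 were tested in all 5 tissue comparisons. In all 5, 11 were called higher in kidney and 4 lower, against 18.4% higher and 13.6% lower of the 18271 models tested in all 5. The 4 lower in kidney were Cxcr4, a chemokine receptor; Txnip, a thioredoxin inhibitor; Sesn1, a stress-response gene; and BCL2L11, the gene of the death protein BIM. Cxcr4 stood at 29.4 to 147 FPKM in kidney and 357 to 455 in circulating cells. Txnip stood at 124 to 308 against 1422 to 2008 FPKM. The 11 higher in kidney included the metallothionein Mt2A (2329 to 3840 against 1.53 to 2.51 FPKM), the ion-transport kinase gene Sgk1 (51.3 to 151 against 7.99 to 12.6) and Dusp1, a MAP kinase phosphatase gene (107 to 292 against 21.0 to 25.3). Over the genes that reached 1 FPKM in either tissue, the list's median log2 fold change lay between 1.70 and 2.74, against 0.20 to 0.46 for all such models. The tubule and macrophage marker sums given above are of the same libraries, and the part of those cells in these values was not tested.

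**Figure D4:**
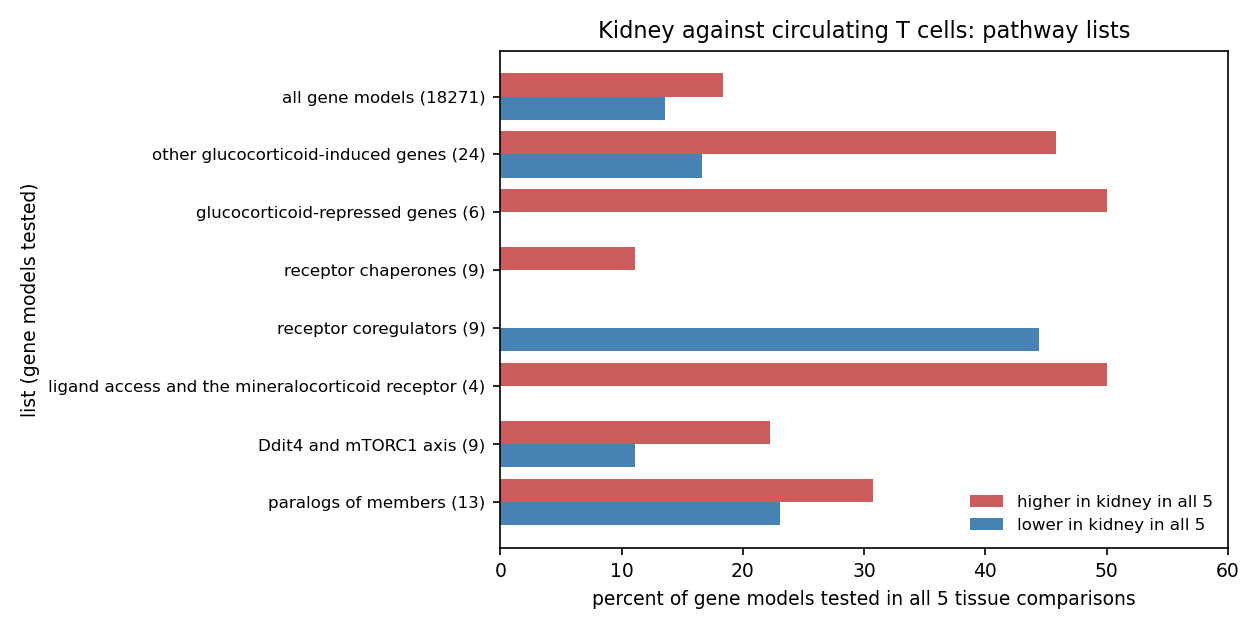
Percent of gene models called higher (red) or lower (blue) in kidney than in circulating T cells in all 5 tissue comparisons, for 7 lists of pathway genes and for all models, with the number tested in parentheses. Other induced genes were called higher more often than lower, while receptor coregulators were called only lower, 4 of 9.

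The machinery around the receptor was read in the same comparisons. Of 9 receptor coregulators, none was called higher in kidney in any comparison. By the call 4 (44.4%) were lower in all 5, against 13.6% of all models. They were Ncoa2 (4.29 to 6.32 FPKM in kidney against 12.0 to 16.1), Ncoa3 (5.39 to 10.6 against 36.1 to 44.6), EP300 and Med1. Ncoa2 and Ncoa3 encode p160 coactivators, and EP300 an acetyltransferase. Of 9 chaperone models tested in all 5, Dnajb1, an HSP40 co-chaperone gene, was called higher in kidney in all 5. This share, 11.1%, is below the 18.4% of all models. Hspa1b, also tested in all 5, stood at 87.0 to 157 FPKM in kidney and at most 0.0578 in circulating cells, and was never called. Hsp90aa1 was called higher in 4 of the 5 and Bag1 in 1, while Ptges3, the p23 co-chaperone gene, was called lower in 4, Stip1 in 3 and Hsp90ab1 in 1, so calls among the chaperones went both ways. Of 4 models for hormone access and the mineralocorticoid receptor tested in all 5, 2 were called higher in kidney in all 5 and none lower. That is 50% of the 4, against 18.4% of all models. Hsd11b1, which regenerates active hormone, stood at 53.4 to 167 FPKM in kidney and 4.22 to 6.13 in circulating cells, and H6pd, which supplies its cofactor, was also called in all 5. Hsd11b2, which inactivates hormone in the distal nephron, stood at 68.7 to 128 against at most 0.0407 FPKM and was called in 2 of the 5.

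Of the glucocorticoid-repressed genes, 6 models were tested in all 5 tissue comparisons. Il1b, Icam1 and Cxcl10, an inflammatory cytokine, an adhesion molecule and a chemokine gene, were called higher in kidney in all 5, and none was called lower in all 5. The share called higher is 50% of the 6, against 18.4% of all models. Il2, tested between the tissues only in SS/MCW on HS, was called lower in kidney there. Around Ddit4, 2 of 9 mTORC1 axis genes were called higher in all 5 (Rptor and Sesn2) and Tsc1 lower, shares of 22.2% and 11.1% that are near the 18.4% and 13.6% of all models. Among 13 paralog models of the members, Tsc22d1, Klf4, Klf10 and Fkbp2 were called higher in kidney in all 5, and Klf2, Klf13 and the model shared by Klf3 and Tbc1d1 lower, shares of 30.8% and 23.1%. Tsc22d1, the paralog of Tsc22d3, stood at 276 to 500 FPKM in kidney and 25.7 to 33.1 in circulating cells, the reverse of Tsc22d3. Klf2, a factor of resting T cells, stood at 30.7 to 71.0 against 301 to 438.

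Within the tissues few pathway genes were called, and the members were not among those of the kidney. For salt in kidney cells 0.433% of all models tested were called in SS/MCW and 5.51% in SS/CRL. With salt in SS/MCW kidney cells 2 of 25 other induced genes rose, Cxcr4 (46.3 to 147 FPKM, log2 fold change 1.67 ± 0.43, SE) and the transcription factor gene Cebpb (74.1 to 190, 1.36 ± 0.36), and none fell, while of 7 repressed genes Ptgs2 fell (4.16 to 0.306 FPKM, -3.77 ± 1.01). T cell markers in these kidney libraries summed to 589 FPKM on LS and 1030 on HS, and macrophage markers to 407 and 914. Red cell markers summed to 4583 and 450 FPKM there, and fibroblast and mural markers to 27.6 and 4.56. Proximal tubule markers summed to 4309 and 2616 FPKM, and thick limb and distal nephron markers to 4980 and 7295. Their part in these calls was not tested. With salt in SS/CRL kidney cells 2 of 24 rose, the gluconeogenic enzyme gene Pck1 (364 to 1071 FPKM) and Rhob, and 2 fell, Sgk1 (154 to 72.0) and ERRFI1 (113 to 56.9). In the same comparison Hsd11b1 fell from 170 to 96.2 FPKM (-0.82 ± 0.21) and H6pd from 11.5 to 6.16, while Hsd11b2 rose from 70.1 to 116 (0.73 ± 0.20). Proximal tubule markers summed there to 10199 FPKM on LS and 5281 on HS, with 6 of 9 called lower, and thick limb and distal nephron markers to 1648 and 2436. Red cell markers summed to 3045 FPKM on LS and 679 on HS. The part of tubule and red cell RNA in these changes was not tested.

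In circulating SS/CRL cells the salt comparison that called Klf9 also called Nfkbia, the NF-kappaB inhibitor gene, lower on HS (131 to 87.9 FPKM, -0.58 ± 0.14, SE), 1 of 19 other induced genes tested. Of 6 repressed genes tested there Il1b was called lower on HS at low levels (1.96 to 0.786 FPKM, -1.32 ± 0.34). EP300 fell from 9.93 to 5.17 FPKM (-0.94 ± 0.23), 1 of 9 coregulators. In this salt comparison 0.670% of all models tested were called. EP300 also rose with age in circulating SS/MCW cells, from 4.65 to 10.6 FPKM (1.19 ± 0.29), beside the NR3C1 model. In that comparison Eif4ebp1, which encodes a target of mTORC1, fell from 47.8 to 30.9 FPKM (-0.63 ± 0.18), while Ddit4 was not called. Age called 1.94% of all models in circulating cells and 1.07% in kidney. In kidney the age comparison called KLF6 higher at 10 weeks (23.8 to 51.0 FPKM) and Ptgs2, the prostaglandin synthase gene, lower (17.9 to 4.14). These kidney libraries and those of Tsc22d3 with age above are the same, and from 7 to 10 weeks thick limb and distal nephron markers summed there to 15548 and 4980 FPKM, T cell markers to 277 and 589, macrophage markers to 182 and 407 and red cell markers to 649 and 4583. Their part was not tested. On HS, kidney cells of SS/CRL rats had 6 of 24 other induced genes called lower and 1 higher than SS/MCW, against 5.72% of all models called in either direction, with Cxcr4 at 30.3 against 152 FPKM and Pck1 at 1102 against 427. Hsd11b1 was higher there in SS/CRL (99.0 against 55.1 FPKM), and of the repressed genes Ccl2 (7.53 against 19.1) and Il1b (7.60 against 16.9) were lower. In the same comparison 13 of 15 T cell markers and 7 of 8 macrophage markers tested were called lower in SS/CRL, with the sums given above for Fkbp5, and their part in these values was not tested.

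The members' patterns over the 10 groups were alike mainly through the tissue difference. Pearson's r of log2(FPKM + 1) lay between 0.48 (Klf9 and Ddit4) and 0.90 (Nr3c1 and Tsc22d3) for the 15 pairs of models. Centred within each tissue it lay between -0.56 (Tsc22d3 and Fkbp5) and 0.75 (Nr3c1 and NR3C1). These are descriptions over 10 group values that share libraries and tables. Among 9851 models with a symbol and at least 5 FPKM in a group, the pattern of Tsc22d3 was most like that of Csnk1a1, both as measured (r = 1.00) and centred (r = 0.96). Fkbp5 was most like Chd4 (r = 0.99), Klf9 most like Ranbp6 (r = 0.95) and Ddit4 most like Tmed2 (r = 0.95, and 0.92 when centred). Nr3c1 was most like Med13 (r = 0.99) and, when centred, Creb1 (r = 0.99), and NR3C1 most like Klhl11 (r = 0.96).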

How the data were processed

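T cell RNA from 40 pools of rats was sequenced by the submitters. The submitters' processing notes name cutadapt, Trim Galore 0.2.5, TopHat, TopHat2 2.1.1, Cufflinks 2.2.1 and Cuffdiff, and build rn5. Expression is FPKM, computed by the authors, 1 deposited value per group. The deposited test statistic is the authors' Cuffdiff score. The p-value and the q-value of each comparison were deposited by the authors too. Columns of per-sample values left unmapped numbered 0. Where the labels do not say that pools held different rats, p-values measure only the spread between these libraries.

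Each table was read as kidney over circulating, HS over LS, 10 over 7 weeks or SS/CRL over SS/MCW. Log2 fold changes were computed from deposited FPKM with no pseudocount, and the SE is the log2 fold change over the normal quantile of the deposited p. Models were called at a q under 0.05. Of 88 pathway genes in 7 lists, 83 were matched, and of 84 markers in 11 lists, 79. Genes named were the members, up to 4 called genes of each list per comparison, by size of log2 fold change among those reaching 5 FPKM, and for each member the genes most like it. Lists called in all 5 tissue comparisons, and a few genes given with levels only, were named after their values were seen. The members and lists were chosen with earlier results of these data known. Promoters are from RefSeq, GRCr8. Calls were also made at a q under 0.01, on models reaching 1 FPKM, with a normal-curve p of the statistic and after recentring. Other alternatives were a pseudocount of 1, other SE, a minimum of 5 FPKM for differences, and levels of 1 table. Software was scipy 1.17.1, numpy 2.4.6, pandas 2.3.3 and matplotlib 3.10.9 under Python 3.11.15.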

Additional observations from a re-analysis of the deposited data

How the results depend on the processing

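Across 90 member effects, recentring on the median changed the sign of 1, which was not called, and a pseudocount of 1 changed none. With a p read from the deposited statistic under a normal curve, members called between the tissues numbered 2 in each SS/MCW comparison and 3 in SS/CRL on HS, and 0 in the circulating comparisons of salt in SS/CRL and of age. At a q under 0.01 the same 2 circulating comparisons had 0 calls. Recentring left 3 calls between the tissues in SS/MCW on HS and gave 2 for age in circulating cells, where Klf9 was added. The cause of these shifts was not tested, beyond the stricter threshold itself. A minimum of 1 FPKM left all 15 counts within 1.5-fold, a pseudocount of 1 left all 90 log2 fold changes within 1 SE, recentring moved 6 of 90 by more than that, and both alternatives for differences again passed no member. What depth limits is unknown, and NR3C1, the least abundant model, had an SE of 0.48 to 0.61 in the kidney comparisons of salt, type and age. No leave-one-out run was made, because the tables give 1 value per group. No paired analysis was possible because the same limit holds: the columns carry no replicate numbers, although the labels give circulating and kidney pools the same ones.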
